A study of Mus musculus with 12 samples.

Results

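The iron handling genes described here are 9 genes of iron carriage, storage, export, oxidation and sensing (Tf, Tfrc, Fth1, Ftl1, Slc40a1, Cp, Heph, Hfe and Hfe2). They were chosen by name, with earlier results of these data known, out of 28591 genes measured in the retinal pigment epithelium (RPE) of mice. Of the 9, 7 were found under the listed symbol, and Tf and Hfe2 were found under their current mouse symbols *Trf* and *Hjv*. RNA sequencing compared 6 WT mice (C57BL/6J) with 6 rd6 mice (*Mfrp* rd6/rd6), all 1 mo of age. The rd6 mouse is homozygous for a spontaneous mutation in *Mfrp*, a membrane protein gene of the RPE, and it loses its photoreceptors slowly. Each library held the pooled RNA of both eyes, taken from eyecups after the front of the eye and the neural retina had been removed, so that cells other than RPE could remain.

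Cells take up iron as transferrin, the iron carrier encoded by *Trf*, bound to the transferrin receptor encoded by *Tfrc*. Iron that is not used is stored inside ferritin, a shell of heavy and light subunits from *Fth1* and *Ftl1*, or leaves through ferroportin, the only known iron exporter, encoded by *Slc40a1*. The copper enzymes ceruloplasmin (*Cp*) and hephaestin (*Heph*) oxidize iron as it leaves, and mice that lack both overload their RPE with iron. *Hfe* and hemojuvelin (*Hjv*) act in the pathway that sets the level of hepcidin, the hormone that removes ferroportin from the cell surface.

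Iron also acts on several of these transcripts directly. Iron regulatory proteins bind a hairpin called the iron-responsive element when iron is low. A hairpin in the 5′ untranslated region (UTR) then blocks translation, and hairpins in the 3′ UTR protect the transcript from decay. The ferritin and ferroportin levels below are therefore levels of transcript, which need not follow the protein. The element was searched in GENCODE M21 coding transcripts (GRCm38, the assembly also called mm10) as a C (unpaired in the hairpin), 5 paired bases, the loop CAGTGN without G at its last base, and the 5 bases that pair back, on the sense strand, with G-T pairs allowed. Of the 9 genes, 3 held a match in the 5′ UTR (*Fth1*, *Ftl1* and *Slc40a1*) and 1 in the 3′ UTR (*Tfrc*). Over 21864 coding genes, 0.096% held one in the 5′ UTR and 0.448% in the 3′ UTR. The matches are printed 5′ to 3′ with 6 bases on either side and the 6 loop bases in capitals, because they are the feature that sets the storage, export and uptake genes apart in how iron controls them.
Fth1, 5′ UTR, chr19:9982732-9982760, plus strand: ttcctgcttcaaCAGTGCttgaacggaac
Ftl1, 5′ UTR, chr7:45459779-45459807, minus strand: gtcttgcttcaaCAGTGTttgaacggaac
Slc40a1, 5′ UTR, chr1:45925465-45925493, minus strand: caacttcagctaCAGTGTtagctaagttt
Tfrc, 3′ UTR, chr16:32631219-32631247, plus strand: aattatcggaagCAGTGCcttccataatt
Tfrc, 3′ UTR, chr16:32631598-32631626, plus strand: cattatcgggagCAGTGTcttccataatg
Tfrc, 3′ UTR, chr16:32631663-32631691, plus strand: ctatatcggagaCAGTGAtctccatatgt
Tfrc, 3′ UTR, chr16:32631710-32631738, plus strand: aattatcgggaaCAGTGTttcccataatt
The matches in the 2 ferritin genes share their stem and differ in the last loop base. In *Slc40a1* and *Ftl1* each lies in 1 annotated coding transcript, in *Fth1* in all 3. A match describes letters in the annotation and is no measurement of binding.

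The libraries held 28907262 to 33152725 reads on genes, with 2 female and 4 male libraries in each genotype. *Mfrp* itself was lower in rd6 (40022 ± 5488 normalized counts in WT against 25881 ± 3091 in rd6, SD, n = 6 each, log2 fold change −0.63, SE 0.11, limma q = 0.00126), with all rd6 libraries below all WT libraries. A count over the whole gene does not read the mutation. All 10 RPE markers were detected, with *Best1* the scarcest (mean of 19.2 normalized counts in WT), and 4 of the 10 were lower in rd6. Of 14 markers of microglia or macrophages 13 were higher, as were 8 of 10 markers of vascular endothelium, while 4 of 12 rod markers were lower. In bulk RNA of this kind, fewer cells of a type and less RNA per cell cannot be told apart. A normalized count is the number of reads on a gene divided by the size factor of its library, and q is the p-value adjusted by Benjamini-Hochberg over the 17768 genes tested. The labels do not number the mice, so the tests measure the spread between these libraries. The genotypes are not stated to be littermates, so strain and genotype cannot be told apart.

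In the rd6 libraries, *Slc40a1* and *Hjv* were higher than in WT, by 2.33-fold and 2.02-fold, and 7 genes did not pass the test. None was called lower by limma at q below 0.05, nor by edgeR or DESeq2. At an unadjusted p below 0.05, by the exact permutation test, *Heph* was the only further gene. The *Slc40a1* transcript was the scarcest of the 9 in both genotypes. The *Hjv* transcript kept a near constant ratio to skeletal muscle transcripts in all 12 libraries, which is described with its values. Over all genes tested, 11.4% were called higher and 11.6% lower at this threshold, and 4.69% were called higher and also passed the fold limit of the study, as both genes did, *Hjv* not when WT replicate 1 was left out. All rd6 libraries lay above all WT libraries for *Slc40a1* and *Hjv* and for 5.77% of all genes tested, and below them for none of the 9 genes and for 5.67% of all genes. The median log2 fold change of the 9 was −0.08, against 0.005 over all genes, with 3 values above 0 and 6 below.

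**Figure D1:**
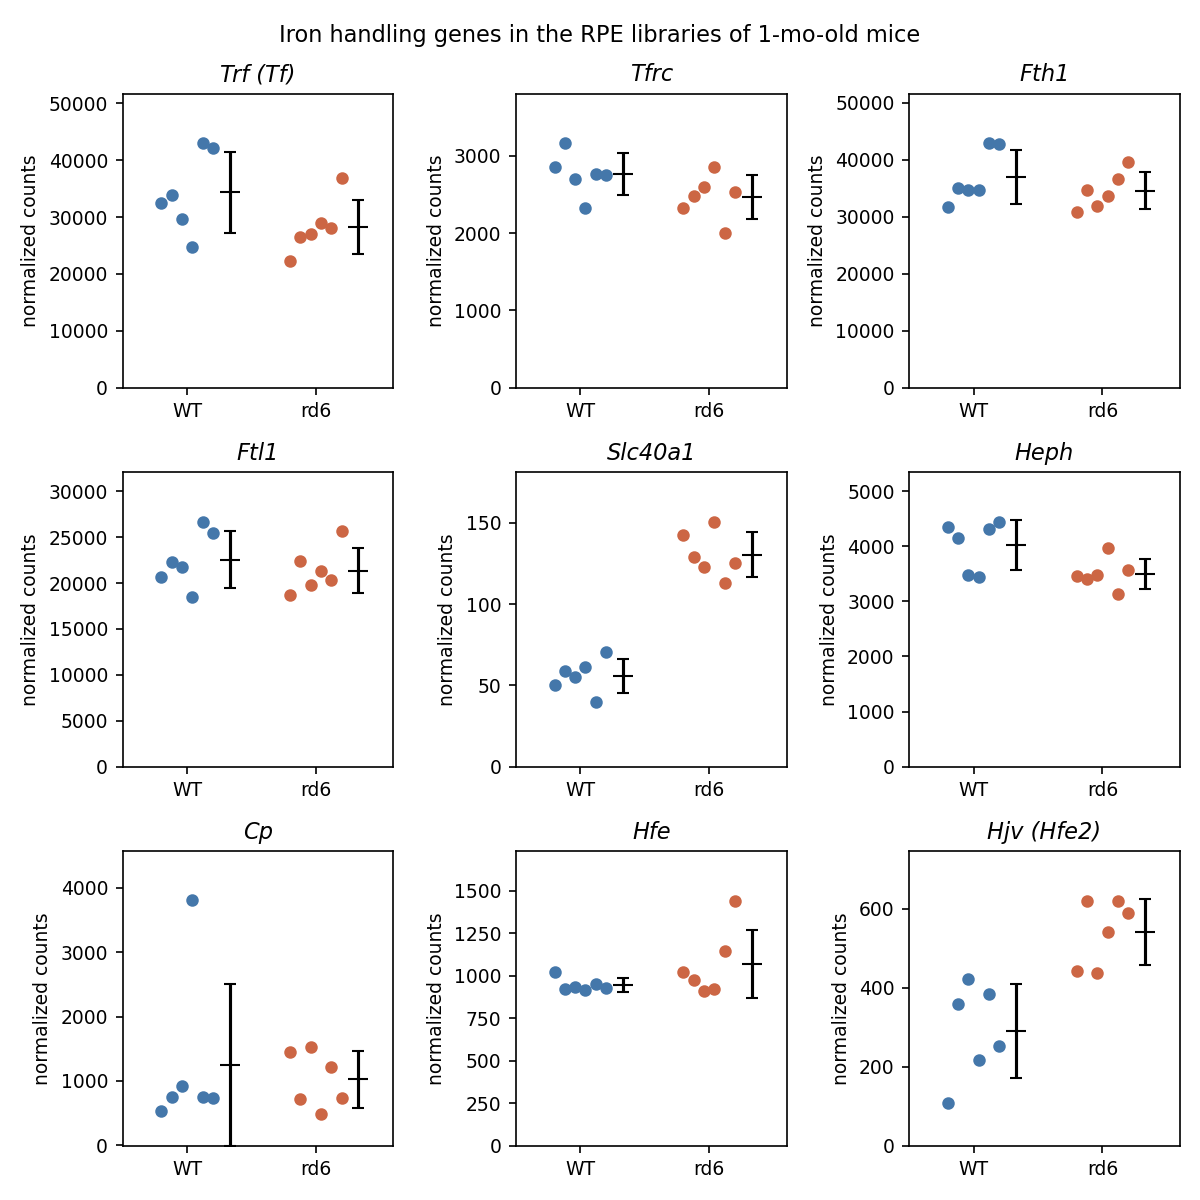
Normalized counts (linear axes from 0, or lower where an error bar crosses 0) of the 9 genes in the 6 WT (blue) and 6 rd6 (orange) libraries, with the mean and SD in black. The groups separate for *Slc40a1* and *Hjv* and overlap for the other 7, and a single WT library lies high for *Cp* at 3801.

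To set the genes against each other, counts were divided by the length of the principal transcript. In WT, *Fth1* was highest at 24767 ± 3184 normalized counts per kb, followed by *Ftl1* at 23303 ± 3157 and *Trf* at 13356 ± 2783 (SD, n = 6). The ranges of *Fth1* and *Ftl1* overlapped, so their order was within the spread. A wide gap followed. *Heph* stood at 849 ± 95.1 per kb, *Tfrc* at 565 ± 56.0 and *Hfe* at 265 ± 11.0. *Cp* was at 311 ± 312, a mean that rests on WT replicate 4. Its range of 133 to 943 overlapped those of *Heph*, *Tfrc*, *Hfe* and *Hjv*, and without replicate 4 it was at 184 ± 34.7 (SD, n = 5), below *Hfe*. *Hjv* reached 143 ± 59.0 per kb and *Slc40a1* 16.6 ± 3.09. The transcript of the exporter was thus the least abundant of the genes, below the 2 ferroxidases that act beside it. In rd6 *Cp* came after *Hfe* and *Hjv*, with overlapping ranges of the 3, and the order was otherwise that of WT. *Slc40a1* remained last at 38.7 ± 4.09 per kb. With all annotated exons as the length, *Ftl1* came before *Fth1* and *Cp* came after *Hjv* in WT, while *Slc40a1* stayed last at 6.22 ± 1.16 per kb.

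**Figure D2:**
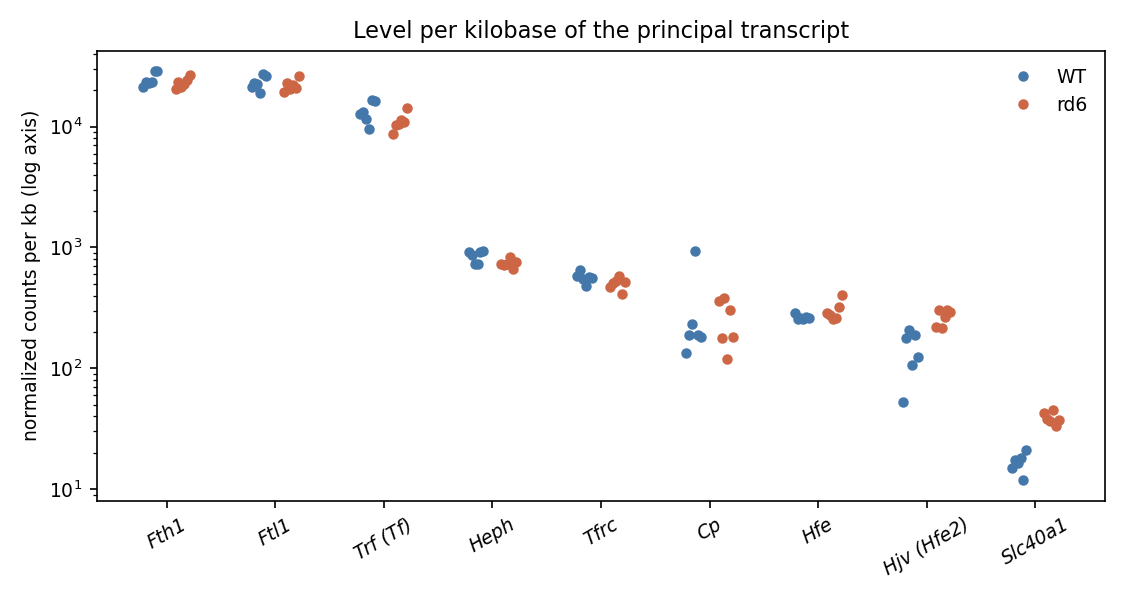
Level of each gene in normalized counts per kb of principal transcript (log axis), ordered by the WT mean, with 6 WT libraries in blue and 6 rd6 libraries in orange. The ferritin genes and *Trf* lie above all others, and *Slc40a1* is lowest in both genotypes.

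Iron carriage and uptake showed no call. *Trf* (chr9:103204001-103230444, minus strand) ranged from 24777 over a median of 33148 to 43119 normalized counts in WT, and from 22225 over 27568 to 36881 in rd6. The highest WT libraries, replicates 5 and 6, lay above all rd6 libraries, and rd6 replicate 1 lay below all WT libraries. The remaining libraries of the groups overlapped. The log2 fold change was −0.27 (95% interval −0.58 to 0.04, limma q = 0.206). The exons of *Trf* share 2108 bases with *Gm20425* on the same strand, so its count is uncertain. *Tfrc* (chr16:32608920-32632794, plus strand) ranged from 2324 over 2759.9 to 3174 in WT and from 2004 over 2503 to 2854 in rd6. Of the rd6 libraries, 2 lay below all WT libraries and the others among them. Its log2 fold change was −0.17 (95% interval −0.35 to 0.02, limma q = 0.186).

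Neither ferritin gene passed the test, and the intervals of both were narrow. *Fth1* (chr19:9980598-9985098, plus strand) ranged from 31680.4 over 34915 to 43053 normalized counts in WT and from 30827 over 34180 to 39701 in rd6. *Ftl1* (chr7:45457944-45459884, minus strand) ranged from 18461 over 22002 to 26696 in WT and from 18709 over 20799.9 to 25636 in rd6. In both genes WT replicates 5 and 6 and rd6 replicate 6 were the high libraries, as they were for *Trf*. The log2 fold change was −0.09 for *Fth1* (95% interval −0.29 to 0.10, limma q = 0.502) and −0.08 for *Ftl1* (95% interval −0.29 to 0.14, limma q = 0.616). The heavy subunit carries the iron-oxidizing site of ferritin. Per kb of principal transcript, the *Fth1* to *Ftl1* ratio was 1.07 ± 0.0818 in WT and 1.05 ± 0.0610 in rd6 (SD, difference of the log2 ratio −0.02, exact two-sided permutation p = 0.742, n = 6 each). Which subunit transcript was the more abundant could not be told, since the ratio was 0.636 ± 0.0488 in WT and 0.628 ± 0.0363 in rd6 per kb of all annotated exons. The comparison between the genotypes does not depend on the length used. The *Tfrc* to *Fth1* ratio, which sets a transcript with the hairpin in its 3′ UTR against a transcript with the hairpin in its 5′ UTR, was 0.0231 ± 0.00381 in WT and 0.0220 ± 0.00344 in rd6, also per kb (difference of the log2 ratio −0.07, exact two-sided permutation p = 0.578).

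Copies of the light chain gene took a large part of the reads. *Ftl1-ps1* averaged 14234 (WT) and 13222 (rd6) normalized counts and *Ftl2-ps* 8498 and 7893, so that *Ftl1* held 49.8% of the summed counts of itself and its copies in WT (48.8 to 51.0% by library) and 50.3% in rd6 (48.8 to 52.3%). Near-identical copies divide reads in a way that the counts cannot resolve, so the level of *Ftl1* is uncertain by about this factor. The exons of *Ftl1* also share 355 bases with *Gm10252* on the other strand and 109 with *Gm22133* on the same strand. The copies were not called either (log2 fold change −0.10 for both, limma q = 0.542 and 0.540). *Ftl1-ps2* averaged 34.7 in WT and 36.6 in rd6, and *Fth-ps2* and *Fth-ps3* had at most 6 reads in any library. With the copies added to *Ftl1*, the log2 ratio of *Fth1* to light chain differed by −0.004 between the genotypes (exact permutation p = 0.937), and the ratio itself was 0.531 ± 0.0358 in WT and 0.529 ± 0.0288 in rd6 per kb of principal transcript.

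The exporter was the member with the clearest difference. *Slc40a1* (chr1:45908068-45926523, minus strand) ranged from 39.9 over a median of 56.9 to 70.6 normalized counts in WT and from 113 over 127 to 151 in rd6. The gap between the groups was wider than the range of either, and no library held more than 158 reads of the gene. The means were 56.0 ± 10.4 and 131 ± 13.8 (SD, n = 6 each), with a log2 fold change of 1.22 (SE 0.14, 95% interval 0.92 to 1.52, limma q = 4.63e-05, exact permutation p = 0.00216, the smallest that 6 against 6 allows). The call held in all 23 alternative settings, with a log2 fold change of 1.10 to 1.29.

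Ferroportin is also a gene of macrophages, which recycle iron, and their markers moved with the genotype. None of the 14 markers of microglia or macrophages was at 0 in any library. *Csf1r*, at 12921 to 18698 normalized counts in WT, did not pass the test. The 12 markers of low level in WT, a choice made after their values were seen, summed to 682 to 1850 in WT and to 5047 to 11258 in rd6. In WT, replicate 6 was highest both in this sum and in *Slc40a1*. In rd6, replicate 4 was likewise highest in both, at 11258 and 151. Replicate 1 had the lowest sum, 5047, and the second highest *Slc40a1*, 142, whereas replicate 5, with a sum of 10393, had the lowest *Slc40a1*, 113. Per 1000 counts of these 12 markers, *Slc40a1* stood at 38.1 to 80.5 in WT and at 10.9 to 28.2 in rd6. The part of macrophage or endothelial RNA in the difference of *Slc40a1* was not tested. The genes whose deviations from the genotype means were most like those of *Slc40a1* over the 12 libraries were *Arhgap39*, *Man1c1* and *Mfn2* (Pearson r of 0.85, 0.81 and 0.79), which share library and depth with it. None of the 3 was called (limma q of 0.999, 0.103 and 0.860).

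The ferroxidases did not pass the test. *Heph*, the membrane-bound enzyme (chrX:96455359-96574485, plus strand), ranged from 3446 over 4225 to 4448 normalized counts in WT and from 3127 over 3468 to 3960.4 in rd6. WT replicates 3 and 4 lay among the rd6 libraries, and the other 4 WT libraries lay above all of them. The log2 fold change was −0.20 (95% interval −0.37 to −0.03, limma q = 0.0865, exact permutation p = 0.0368). *Heph* is X-linked, and with the sex of the library as a covariate it was called lower (limma q = 0.0457). It was also called lower without WT replicate 3 (limma q = 0.0467) or without WT replicate 4 (limma q = 0.0289).

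*Cp*, the secreted and anchored ferroxidase (chr3:19957054-20009145, plus strand), ranged from 534 over 756 to 3801 in WT and from 480.3 over 978 to 1530.1 in rd6. The highest value was WT replicate 4, more than 4 times the next WT library at 928. The log2 fold change was −0.03 (95% interval −0.98 to 0.91, limma q = 0.966), an interval too wide to speak of *Cp* as unchanged. Without WT replicate 4 it was 0.36 (limma q = 0.359). The same library was highest of the WT libraries in *Slc39a8*, an importer of zinc and iron (575 against 53.2 to 81.5 in the other WT libraries), in *Aqp4*, a water channel (618 against 44.3 to 129), and in *Dkk3* (22392 against 4685 to 9064). *Aqp4* and *Dkk3* are from the list of 10 Müller glia markers, of which 6 were highest of the WT libraries in replicate 4, 2 lowest (*Glul* and *Apoe*) and 2 between (*Kcnj10* and *Crym*). The genes named here were picked after their values were seen, and the part of other ocular cells in the *Cp* value was not tested.

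Of the genes that sense body iron, *Hfe* did not pass the test and *Hjv* did. *Hfe*, a partner of the transferrin receptors (chr13:23702034-23710854, minus strand), ranged from 918 over 929 to 1021 normalized counts in WT and from 908 over 999 to 1442 in rd6. The WT values were close together. Of the rd6 libraries, 3 lay above all of them, replicate 1 by less than 1 count and replicates 5 and 6 by more. The log2 fold change was 0.16 (95% interval −0.05 to 0.37, limma q = 0.271). *Hjv*, a co-receptor for bone morphogenetic proteins (chr3:96525172-96529210, plus strand), ranged from 107 over 306 to 422 in WT and from 438 over 565 to 621 in rd6. All rd6 libraries lay above all WT libraries, the nearest at 438 against 422. The means were 291 ± 120 and 542 ± 83.9 (SD, n = 6 each), with a log2 fold change of 1.02 (SE 0.28, 95% interval 0.41 to 1.63, limma q = 0.0203, exact permutation p = 0.00216). It passed the fold limit of the study only with WT replicate 1, its lowest library. Without that library the log2 fold change was 0.76 (limma q = 0.0116), and without WT replicates 1 and 4 and rd6 replicate 5 it was 0.58 (limma q = 0.0255), both under the limit.

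The difference in *Hjv* went with skeletal muscle transcripts. The genes most like it over the 12 libraries were *Mybpc2*, *Ckm* and *Myoz1* (Pearson r of the deviations from the genotype means 0.99, 0.98 and 0.98), which encode a myosin-binding protein, the muscle creatine kinase and a Z-disc protein. *Hjv* itself is a gene of skeletal muscle, heart and liver. A list of 15 skeletal muscle genes, drawn up after this was seen, had 12 genes called higher in rd6 and 3 not called, with a median log2 fold change of 0.97. None of the 15 was at 0 in any library. They summed to 19121 to 73694 normalized counts in WT and to 69388 to 99484 in rd6, lowest in WT replicate 1, which was also lowest in *Hjv*, and in WT highest in replicate 3, which was also highest in *Hjv*. Per 1000 counts of these genes, *Hjv* stood at 5.54 to 6.62 in WT and at 5.33 to 6.71 in rd6, so the groups overlapped fully. The difference of the log2 ratio was 0.08 (exact two-sided permutation p = 0.238), against 1.02 for *Hjv* unscaled and 0.94 for the summed muscle genes. The level of *Hjv* thus cannot be assigned to the RPE, and whether muscle remained on the eyecups was not tested beyond these values.

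**Figure D3:**
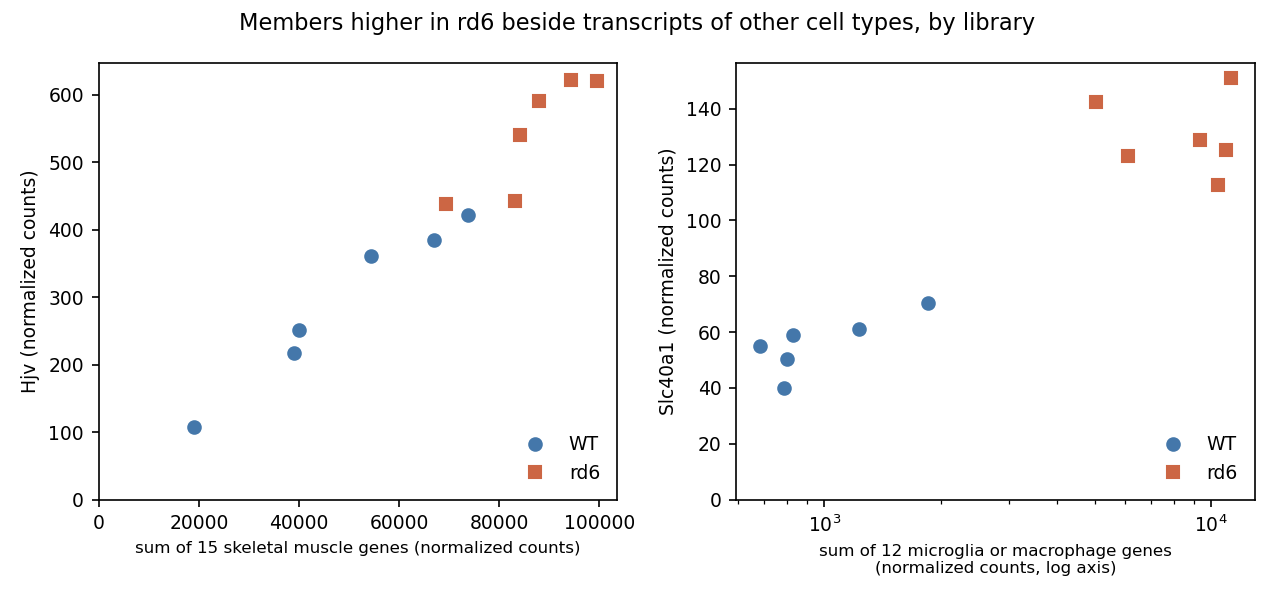
Left, *Hjv* against the sum of 15 skeletal muscle genes (both linear axes in normalized counts), right, *Slc40a1* against the sum of 12 microglia or macrophage genes (log horizontal axis), with a point per library, WT as blue circles and rd6 as orange squares. *Hjv* rises with the marker sum across both genotypes, at 5.33 to 6.71 per 1000 marker counts, and *Slc40a1* lies at 113 to 151 in the rd6 libraries, where the library with the highest marker sum has 151 and that with the lowest has 142.

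**Figure D4:**
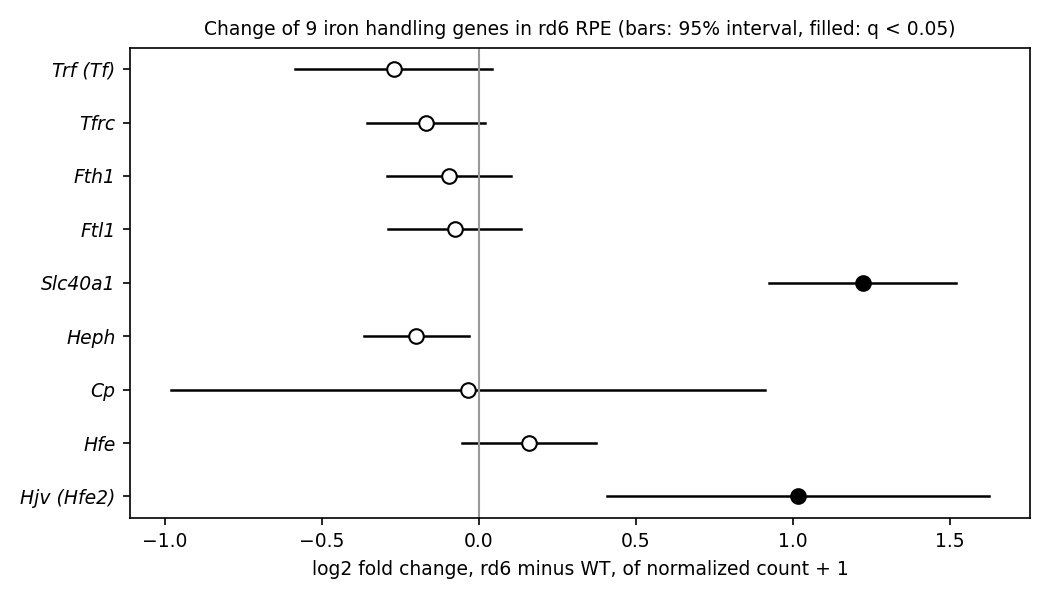
Log2 fold change of the 9 genes, rd6 minus WT, on the log2 scale of normalized count + 1, with 95% intervals as bars and filled points at q < 0.05. *Slc40a1* (1.22) and *Hjv* (1.02) are filled, and the interval of *Cp* is the widest around 0 at −0.98 to 0.91.

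Beyond the 9 genes, 81 further genes of iron and heme biology were listed in 8 groups, of which 79 were in the table and 75 could be tested. Of the 75, 13 were called higher in rd6 (17.3%) and 7 lower (9.33%), beside the 11.4% and 11.6% of all genes, and their median log2 fold change was 0.07. Of those called, 3 passed the fold limit of the study, all of them higher, namely *Tfr2*, *Hmox1* and *Steap3*.

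In uptake, reduction and release from the endosome, 4 of 13 genes were higher and none lower. *Tfr2*, the second transferrin receptor, ranged from 2.06 over 12.1 to 15.8 normalized counts in WT and from 42.4 over 46.3 to 86.5 in rd6 (log2 fold change 2.36, SE 0.39, limma q = 0.000765). The level was low, and the groups did not overlap. *Steap3*, the ferrireductase of the transferrin endosome, had 192 ± 30.2 in WT and 401 ± 42.7 in rd6 (log2 fold change 1.06, SE 0.11, limma q = 2.00e-05), again without overlap. *Slc39a14*, an importer of iron that is not bound to transferrin, had a log2 fold change of 0.58 (limma q = 0.000161), and *Slc22a17*, named after its value was seen as the last of the 4, had 0.46 (limma q = 0.000466). *Slc11a2*, the transporter that carries iron out of the endosome, was at 2063 ± 79.8 in WT and 2095 ± 119 in rd6 (log2 fold change 0.02, limma q = 0.779).

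Of 5 tested ferritin partners and chaperones 2 were lower. *Ncoa4*, the receptor that sends ferritin to the lysosome, had 1310.1 ± 55.1 in WT and 1008 ± 79.9 in rd6, with all rd6 libraries below all WT libraries (log2 fold change −0.38, SE 0.06, limma q = 0.000424). *Pcbp2*, an iron chaperone, had a log2 fold change of −0.19 (limma q = 0.0112), and its exons share 1573 bases with *Map3k12* on the other strand. Of 3 iron sensors *Aco1*, whose protein without its iron-sulfur cluster is an iron regulatory protein, was lower (7862 ± 684 against 6059 ± 726, log2 fold change −0.38, SE 0.08, limma q = 0.00599). *Ireb2*, which encodes the other iron regulatory protein, had a log2 fold change of −0.15 (limma q = 0.338).

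In hepcidin and its control, 2 of 12 tested genes were higher and 3 lower. The ligands *Bmp2* (3362 ± 505 against 1928 ± 239.7, log2 fold change −0.80, SE 0.11, limma q = 0.000183) and *Bmp6* (5627 ± 799 against 3375 ± 599, log2 fold change −0.74, SE 0.13, limma q = 0.00151), which raise hepcidin in the liver, were both lower, with all rd6 libraries below all WT libraries. *Smad1*, a transducer of this pathway, was higher (log2 fold change 0.44, limma q = 0.000550). The inhibitor *Smad6* was also higher, at 0.41 (limma q = 0.00897), and the transducer *Smad5* lower, at −0.17 (limma q = 0.0359). The call of *Smad5* was lost in 11 of 23 refits and that of *Smad6* in 1. These 2 genes were named after their values were seen. Hepcidin itself, *Hamp*, had at most 1 read in any library and could not be tested. *Bmp6* shares 224 exon bases with *Txndc5* on the other strand, and *Smad5* shares 100 with *Gm27301* on the same strand.

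In heme transport and breakdown, 4 of 12 tested genes were higher and 1 lower. *Hmox1*, the inducible heme oxygenase that frees iron from heme, rose from 524 ± 63.2 to 1135 ± 166 normalized counts (log2 fold change 1.11, SE 0.10, limma q = 6.52e-06), with no overlap. It is also a gene of macrophages, whose markers were higher in rd6 as given above, and their part in it was not tested. *Blvra*, which reduces the biliverdin that heme oxygenase makes, had a log2 fold change of 0.52 (limma q = 0.00221). *Abcg2*, an exporter of porphyrins, had 0.74 (limma q = 0.0432), a call that was lost in 10 of 23 refits (q up to 0.117). *Abcg2* is also a gene of endothelium, of whose 10 markers 8 were higher in rd6 and none was at 0 in any library. These markers summed to 6898 to 13270 in WT, where both the sum and *Abcg2* (332) were highest in replicate 3. In rd6 they summed to 11729 to 26052, and *Abcg2* was lowest (237) in replicate 4, the library with the lowest sum, and highest (623 and 561) in replicates 1 and 2, those with the highest sums. The part of endothelial RNA in the difference of *Abcg2* was not tested. The others, named after their values were seen, were *Hmox2* at 0.21 (limma q = 0.0256) and, as the gene that was lower, *Lrp1* at −0.29 (limma q = 0.0452). The call of *Lrp1* was lost in 13 of 23 refits, and that of *Hmox2* in 3. The exons of *Hmox2* share 892 bases with *Cdip1* on the other strand.

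In heme synthesis 1 of 9 genes was called. *Alas1*, the rate-limiting enzyme outside red cells, had 1487 ± 61.6 in WT and 2524 ± 161 in rd6, with all rd6 libraries above all WT libraries (log2 fold change 0.76, SE 0.05, limma q = 3.91e-07). Its exons share 465 bases with *4930500F10Rik* on the other strand. *Alas2*, the enzyme of red cell precursors, ranged from 71.5 to 744 in WT and from 123 to 302 in rd6 and was not called (log2 fold change 0.65, limma q = 0.341). The summed globin transcripts were highest in WT replicate 1, at 49986 against 7127 to 16042 in the other WT libraries and 15032 to 31406 in rd6. Of 16 genes of mitochondrial iron and iron-sulfur clusters, *Nfu1* was higher (log2 fold change 0.23, limma q = 0.0306), and *Slc25a37*, the mitochondrial iron importer, had −0.24 (limma q = 0.224). The call of *Nfu1* was lost in 9 of 23 refits (limma q up to 0.120). None of 5 tested genes of copper supply and further ferroxidases was called by limma, edgeR or DESeq2, and 1 had an unadjusted limma p below 0.05.

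**Figure D5:**
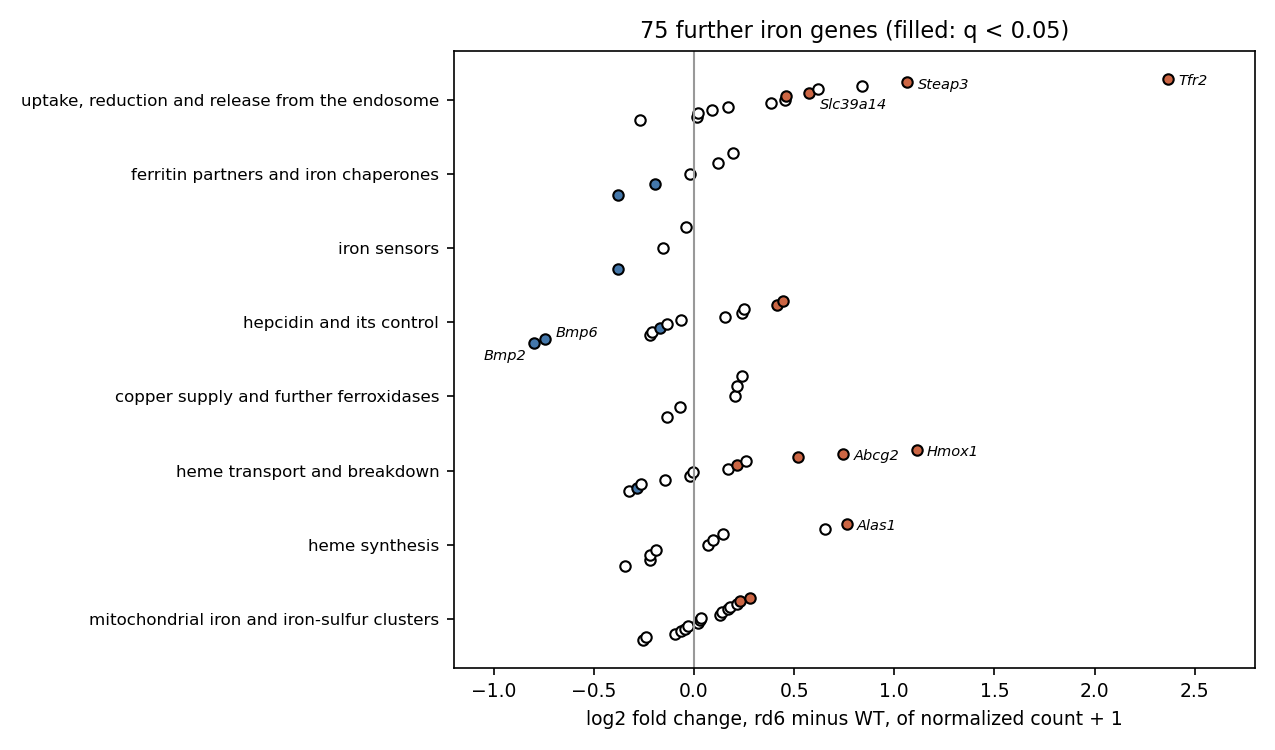
Log2 fold change, rd6 minus WT, of normalized count + 1 for 75 further iron genes, a point per gene in 8 groups, orange where higher and blue where lower at q < 0.05, open otherwise. *Tfr2* (2.36), *Hmox1* (1.11) and *Steap3* (1.06) lie farthest right, and *Bmp2* (−0.80) and *Bmp6* (−0.74) farthest left.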

How the data were processed

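The data were 12 RNA sequencing libraries of RPE, 6 WT and 6 rd6. Per the labels and the paper, total RNA was made into stranded libraries and read in pairs. The authors used mm10 as the genome, Rsubread for alignment and counting, and DESeq2 for normalization. Their versions, and whether counting used the strand, are not given in the sources used here. The deposited values are a signal per gene, in which the counts of a library were scaled by its DESeq2 size factor. In every library 100% of the values were whole multiples of 1 read within 0.001, so reads could be recovered. The fold changes and p-values that the authors deposited beside them were not used. Of 28596 entries, 5 with repeated identifiers were dropped.

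Genotypes were compared with limma 3.58.1 in R 4.3.3 (lmFit, then eBayes with trend) on log2(value + 1), with no further term, for 17768 genes whose mean reached 10, at q below 0.05. Fold changes on this scale understate those of low genes. Ratios and single genes were compared by exact two-sided permutation of the libraries. Alternatives were pseudocounts of 0.1 and 10, other filters, TMM and upper-quartile rescaling, edgeR 4.0.16 and DESeq2 1.42.0 on the recovered reads, a replicate block, sex as a covariate and leaving out libraries. The pipeline was tested on simulated data. Coordinates, lengths and sequences are from GENCODE M21, and synonyms from RefSeq. Depth speaks only to the counting error of reads, and amplified reads are not independent molecules, so depth can overstate precision.

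The 9 genes and the lists were chosen with earlier results of these data known. Named are the 9 genes, up to 3 genes of each iron list with the largest change among those called, *Slc11a2*, *Hmox1*, *Hamp*, *Ncoa4*, *Aco1*, *Ireb2*, *Alas2*, *Slc25a37* and *Mfrp*, ferritin copies, and for each called member the 3 genes most alike by correlation of deviations from the genotype means, among genes with a mean of at least 100. Other names are given as chosen later, and some genes that the rule selects are not reported here. Marker lists covered RPE, microglia or macrophages, rods, vascular endothelium, oligodendrocytes (1 of 7 tested genes higher and 3 lower), Müller glia (2 of 10 higher and 1 lower) and red blood cells (0 of 4 called by limma, edgeR or DESeq2, 0 at an unadjusted p below 0.05).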

Additional observations from a re-analysis of the deposited data

Results flagged for a closer look

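In 22 groups of 6 libraries, the 9 genes and 2 ratios in each genotype, the highest or lowest library was set against its neighbour, and 2 stood apart beyond the 95% limit of Dixon's test, where chance gives about 1 in 20. *Cp* in WT replicate 4 was 3801 normalized counts, with a gap to the next library of 0.879 of the group's range, and without this library the log2 fold change of *Cp* was 0.36 in place of −0.03. *Hfe* in WT replicate 1 was 1021 normalized counts, with a gap of 0.655 of the range, in a group whose SD was 39.3, and the fold change of *Hfe* was not called with or without it.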

How the results depend on the processing

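*Slc40a1* and *Hjv* were called higher in all 23 refits (log2 fold change 1.10 to 1.29 and 0.58 to 1.15), so that 2 genes were called higher throughout, also without WT replicates 1 and 4 and rd6 replicate 5, a refit chosen after seeing the data. Divided by skeletal muscle counts, also chosen after seeing the data, *Hjv* kept 0.08 (exact permutation p = 0.238). *Heph* was the gene behind 1 call lower with sex as covariate, and leaving out single libraries gave 0 to 1 genes called lower. *Cp* changed sign with upper-quartile rescaling (0.0043), without WT replicate 4 (0.36), without rd6 replicates 2, 4 or 6 (0.04, 0.16 and 0.04; −0.20 to 0.36 over all single libraries left out) and without the 3 libraries together (0.17). The cause was not tested. With single libraries left out, the difference of the log2 ratio of *Fth1* to *Ftl1* ran from −0.046 to 0.023, its sign turned without WT replicate 4, and that of *Tfrc* to *Fth1* from −0.13 to 0.00076, its sign turned without rd6 replicate 5. Of the further iron genes, 10 to 15 were called higher and 5 to 10 lower. *Lrp1*, *Smad5*, *Abcg2* and *Nfu1* lost their call in 13, 11, 10 and 9 of 23 refits, and *Hmox2*, *Pcbp2* and *Smad6* in 3 or fewer. Upper-quartile rescaling moved the median of all genes to 0.04 and the calls to 2453 higher and 1598 lower, against 2024 and 2062.

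The replicate numbers did not pair the libraries. The deviations of WT and rd6 libraries that share a number correlated at −0.74 to 0.31, and no WT library correlated best with its own number. With the replicate block, 2 of the 9 genes were called higher and 0 lower by limma, and 1453 genes higher and 1489 lower over all genes.

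At this depth *Tfr2* in WT rests on at most 16 reads per library and *Slc40a1* on at most 73, and *Hamp* could not be measured.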
